A study of Mus musculus with 12 samples.

Results

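The DNA replication machinery was followed here as 45 genes, chosen by name for their place in origin licensing, the helicase, the polymerases, the sliding clamp and the fork. All 45 were found in the table of 55487 genes, and all 45 were among the 14591 genes abundant enough to be tested. The cells were B16F10, a wild-type mouse melanoma line, kept for 24 h in the conditioned medium of macrophages grown from bone marrow (BMDM), after which their mRNA was sequenced. The macrophages had themselves been treated for 24 h. Those of the M0 group received control medium, DMEM. Those of the M1 group received 20 ng/ml of a cytokine written INF-γ, read here as interferon gamma. Those of the M2 group received 20 ng/ml of IL-4. Those of the fourth group, called TAM here for tumour-associated macrophage, received 75% conditioned medium of B16F10 cells. Each group held 3 libraries, and every library here came from cells given a macrophage medium, so M0 is a control for the state of the macrophages and not for the absence of them. None of the 12 libraries came from B16F10 cells given B16F10 medium that had not passed over macrophages, so in TAM what the macrophages released and what the tumour medium carried over cannot be told apart. The labels do not say that the 3 libraries of a group were separate cultures, so p-values speak only of differences between these libraries, and their spread may be technical.

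Replication starts at origins where the origin recognition complex, with Cdc6 and Cdt1, loads the ring-shaped MCM2-7 helicase in G1, a step called licensing that geminin (Gmnn) blocks after S phase has begun. The Dbf4-dependent kinase Cdc7, Cdc45 and the GINS complex turn the loaded ring into a moving helicase, behind which polymerase alpha-primase lays primers and polymerases epsilon and delta copy the strands, held to DNA by the clamp PCNA that replication factor C loads. Many of these genes are transcribed at the G1/S boundary by E2F factors, so their transcripts are widely used as a measure of how actively a population of tumour cells cycles. In bulk RNA, fewer cells in S phase and less transcript per cell cannot be told apart.

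The promoters of the genes are shown first because most members fell in each comparison of TAM, and E2F sites are a textbook feature of many genes of this kind. RefSeq promoter windows on GRCm38.p6, from 250 bases before to 50 bases after a start site, matched 36 of the 45 members. They were searched on both strands for 4 E2F octamers, TTTCCCGC, TTTCGCGC, TTTGCCGC and TTTGGCGC. At least 1 octamer was present in 14 of the 36 members, 38.89%, against 704 of 27025 genes with such a window, 2.605%. The base composition of the windows was not matched, and a match describes letters, not a bound site. In the 14 members with an octamer the median log2 change in TAM against M0 was -1.48, from -2.59 for Lig1 to -0.70 for Gins3. In the 22 without one the median was -1.14, from -1.91 to 0.41, so the ranges overlapped widely. Mcm3, Mcm5, Mcm6 and Mcm7, genes of the helicase ring, each held more than 1 octamer, and 1 context of each is printed. The likeness of the octamers was set by the search. Of the other ring genes, Mcm2 had a window without an octamer and Mcm4 had no window. Capitals mark the octamer, on either strand, and each line reads 5′ to 3′ along the gene's strand. The lines lie at chr1:20820276-20820303 (Mcm3, minus strand), chr8:75109346-75109373 (Mcm5, plus strand), chr1:128359798-128359825 (Mcm6, minus strand) and chr5:138171850-138171877 (Mcm7, minus strand).
Mcm3: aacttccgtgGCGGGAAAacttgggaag
Mcm5: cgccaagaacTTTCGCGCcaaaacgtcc
Mcm6: ggcgtatgctTTTGGCGCgaaaagtgcg
Mcm7: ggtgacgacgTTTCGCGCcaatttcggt
Octamers on opposite strands overlapped in Mcm5 and in Mcm6, where TTTGGCGC and TTTCGCGC share a GCGC core.

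Cdt1 and Lig1 carried an octamer just after a start site, at chr8:122568037-122568064 and chr7:13278842-13278869, both on the plus strand.
Cdt1: gaactaccttTTTGGCGCcatggcgcaa
Lig1: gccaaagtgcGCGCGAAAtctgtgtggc
Searches for TTTGAA, the cell cycle homology region (CHR) of late cell cycle genes, found it in 7 of the 36 members, 19.44%, beside 20.23% of all genes. The CCAAT box was present in 22 of 36 members, 61.11%, beside 41.06% of all genes.

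The 2 members with the largest and the 2 with the smallest change in TAM against M0, among those with a window, were Lig1, Pold1, Dbf4 and Orc2, and their windows are printed whole. Capitals mark any match to an E2F octamer, the CHR or the CCAAT box. The windows lie at chr7:13276925-13277224 (Lig1, plus strand), chr7:44548766-44549065 (Pold1, minus strand), chr5:8422667-8422966 (Dbf4, minus strand) and chr1:58505060-58505359 (Orc2, minus strand).
Lig1: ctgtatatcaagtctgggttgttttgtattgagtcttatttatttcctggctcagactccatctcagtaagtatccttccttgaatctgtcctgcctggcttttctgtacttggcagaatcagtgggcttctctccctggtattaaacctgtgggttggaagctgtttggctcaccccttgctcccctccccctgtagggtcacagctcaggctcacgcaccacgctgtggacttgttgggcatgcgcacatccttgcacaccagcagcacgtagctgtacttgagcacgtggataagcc
Pold1: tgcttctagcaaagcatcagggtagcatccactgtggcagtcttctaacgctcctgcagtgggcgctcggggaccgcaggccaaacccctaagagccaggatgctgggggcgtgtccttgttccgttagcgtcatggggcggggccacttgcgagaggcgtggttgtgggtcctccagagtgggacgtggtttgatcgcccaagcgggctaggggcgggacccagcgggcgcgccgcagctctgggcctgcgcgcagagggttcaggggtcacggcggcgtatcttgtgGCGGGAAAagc
Dbf4: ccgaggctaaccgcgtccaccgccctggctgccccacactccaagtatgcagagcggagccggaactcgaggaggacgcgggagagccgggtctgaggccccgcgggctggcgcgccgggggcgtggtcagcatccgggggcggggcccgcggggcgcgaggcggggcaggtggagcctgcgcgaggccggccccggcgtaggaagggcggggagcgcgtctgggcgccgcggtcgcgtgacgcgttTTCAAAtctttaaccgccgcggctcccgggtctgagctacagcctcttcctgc
Orc2: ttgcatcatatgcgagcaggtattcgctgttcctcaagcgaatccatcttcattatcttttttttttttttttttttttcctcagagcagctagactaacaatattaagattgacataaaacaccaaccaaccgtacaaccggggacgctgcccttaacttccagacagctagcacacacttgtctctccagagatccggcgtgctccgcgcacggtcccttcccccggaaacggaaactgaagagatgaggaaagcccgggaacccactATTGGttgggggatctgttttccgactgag
Pold1 held an E2F octamer, Dbf4 a CHR and Orc2 a CCAAT box. The Lig1 window, taken at the RefSeq start nearest the annotated start of the gene, held none of the motifs, while the window of another RefSeq start of Lig1 held the octamer shown before it.

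Libraries held 15916756 to 20863973 counts. M0 replicate 1 stood apart from the others: its log counts correlated at 0.9453 and 0.9479 with the other M0 libraries, while every other pair of replicates lay between 0.9923 and 0.9933. The share of ribosomal protein genes was 8.19% in it and 3.66% to 4.27% in the others, and the mean exon length weighted by counts was 4545 bp and 5817 to 6091 bp. The common dispersion of the fit, a measure of the spread between replicates, was 0.03241 with it and 0.001664 without it. Counts of members that rest on M0, and the single values that this library moved most, are therefore given with and without it. The 7 melanocyte markers were present in every library, from 108 CPM (counts per 1000000 counts of a library, with library sizes scaled by TMM) for the lowest value of Mitf to 7782 CPM for the highest of Pmel. In TAM against M0, 5 of the 7 were called lower, beside 27.2% of all genes. Mitf was 4.14-fold lower, Pmel 3.61-fold and Mlana 3.19-fold. Without M0 replicate 1, 6 of the 7 were called lower, beside 33.7% of all genes. Mitf was then 5.22-fold lower, Pmel 2.97-fold and Mlana 2.37-fold. The part of the melanocyte markers in the results was not tested. Of 16 macrophage markers 7, Ptprc, Adgre1, Itgam and Tyrobp among them, were at 0 counts in every library. The 16 together summed to 3.49 to 4.29 CPM before scaling in TAM and 5.22 to 7.77 in M0. Cd68 alone was at 1.20 to 4.81 CPM over all libraries, so the sum rests on few genes at low levels. What part these markers had in the results was not tested. The 8 fibroblast and endothelial markers summed to 9.46 to 10.6 CPM in TAM and to at most 5.42 elsewhere. Most of the sum was Col1a1, at 8.36 to 9.89 CPM in TAM and 1.68 to 3.23 elsewhere, while Pdgfra was at 0.446 to 2.38 over all libraries and the other 6 were at or near 0. The part of this list in the results was not tested.

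M0 replicate 1 also deviated within the replication genes, and not in 1 direction. It lay above the mean of M0 replicates 2 and 3 for 28 members and below it for 17, from 0.419 times for Pola1, the catalytic subunit of polymerase alpha, to 1.95 times for Rfc2, a clamp loader subunit. The 28 members that were higher had a median exon length of 3681.5 bp and the 17 that were lower one of 6021 bp. Across the 45 genes the log2 ratio and the log2 exon length had a Pearson correlation of -0.466 and a Spearman correlation of -0.419. These values describe 1 library, with no test.

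**Figure D1:**
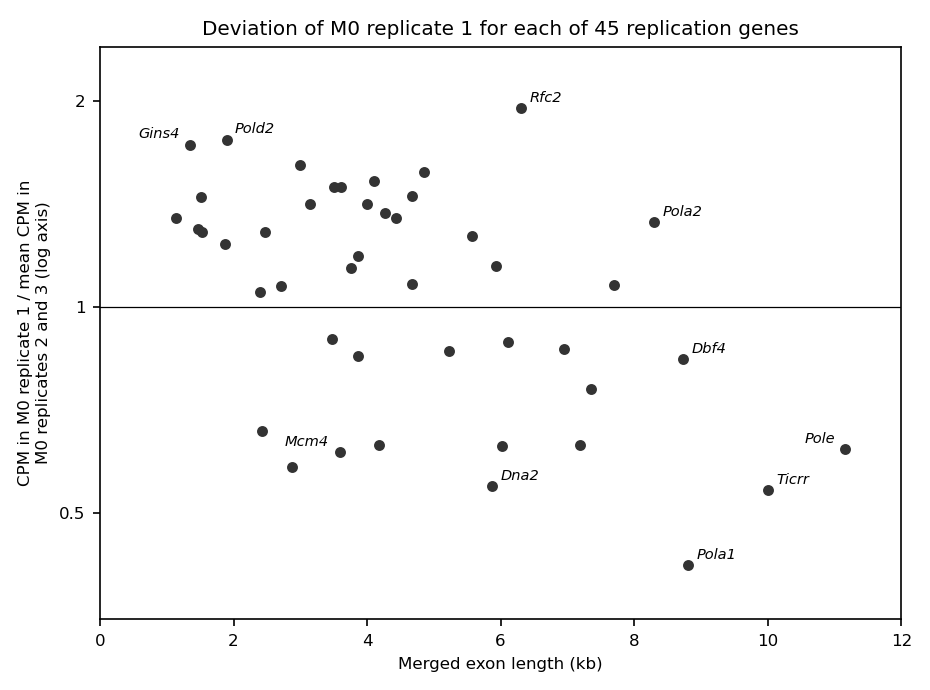
Each point is 1 of the 45 replication genes; the horizontal axis is merged exon length in kb and the vertical axis, on a log scale, the CPM of M0 replicate 1 divided by the mean CPM of M0 replicates 2 and 3. Points spread from 0.419 (Pola1) to 1.95 (Rfc2), with 28 above the line at 1 and 17 below it.

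In medium of TAM macrophages nearly all of the 45 listed replication genes were lower in the melanoma cells than in M0 medium. Of 34 further replication genes, described below, 17 were lower and 7 higher. By edgeR's quasi-likelihood test with Benjamini-Hochberg adjustment over all genes tested, at an adjusted p under 0.05, 43 of the 45 members fell against M0 and Orc2 rose. Dbf4, with a log2 change of -0.15 (SE 0.105, adjusted p = 0.268), did not pass the test. Of all genes tested 27.2% were called lower and 23.3% higher in the same comparison. SE is that of the log2 change throughout. The median member changed by -1.20 on the log2 scale, 2.298-fold lower, while the median of all genes tested was -0.02. At least 2-fold lower were 33 members, and 31 without M0 replicate 1. How many of all genes fell that far was not counted, so the 2-fold counts here and by role only describe the members. Counts of genes lower by role stand beside the same 27.2% of all genes, or 33.7% without M0 replicate 1. Without M0 replicate 1, 44 members fell, Dbf4 among them (log2 change -0.23, SE 0.058, adjusted p = 0.000792), and Orc2 rose, against 33.7% and 33% of all genes, with a median member of -1.21.

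The summed level of the 45 genes was 7247, 6507 and 6631 CPM in the M0 libraries, 4908, 5137 and 5028 in M1, 6411, 6384 and 6430 in M2, and 2829, 2871 and 2860 in TAM. Every TAM library lay far under every other library, the M1 libraries lay between TAM and the rest, and M2 lay just under M0. For 41 members all 3 TAM libraries were under all 3 M0 libraries, where 29% of all genes showed this, and for Orc2 they were all above, beside 29.9%. Against M2 the groups did not overlap for 44 members that were lower in TAM and for Orc2, which was higher, beside 36.5% and 36.1% of all genes. Against M1 there were 41 such members lower and Orc2 higher, beside 36.8% and 36.4%. The mean in M1 lay between those in M2 and TAM for 40 of the 45 genes, the exceptions being Orc2, Dbf4, Pola2, Rfc3 and Clspn.

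**Figure D2:**
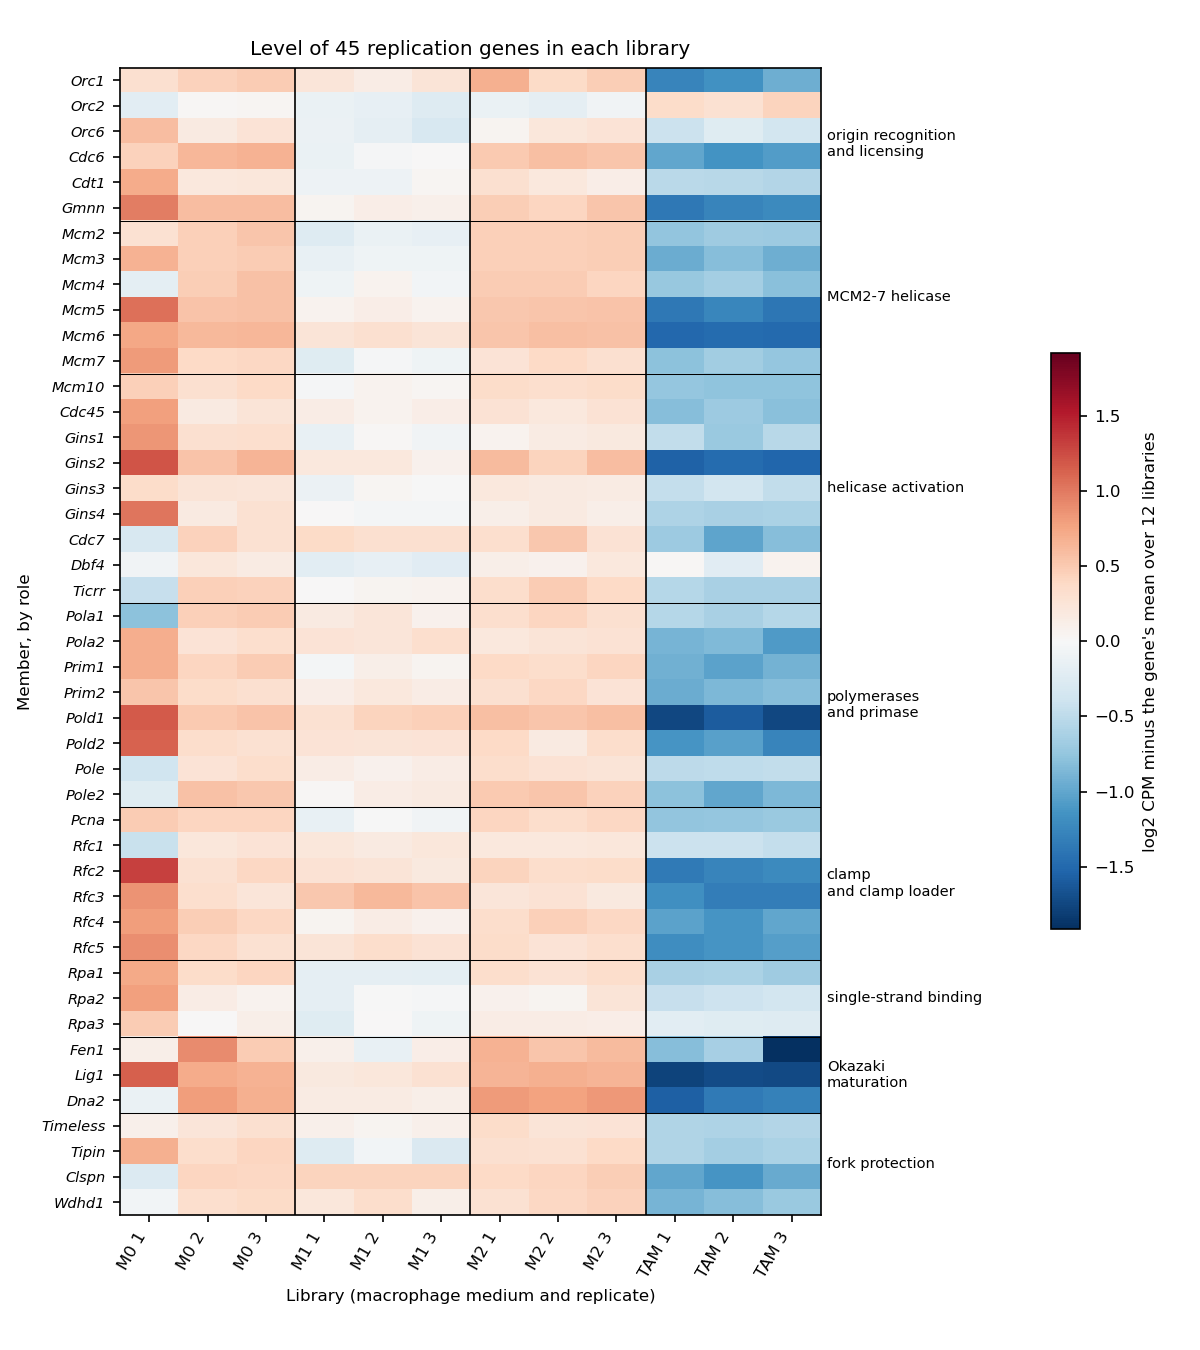
Rows are the 45 replication genes grouped by role, columns the 12 libraries, and the colour is the log2 CPM of a gene in a library minus its mean over the 12 libraries (red higher, blue lower). The 3 TAM columns are blue for nearly every row, Orc2 being red and Dbf4 pale there, and the column of M0 replicate 1 mixes the deepest reds with pale and blue cells.

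Among the genes of origin recognition and licensing, 5 of 6 fell in TAM and 3 of them at least 2-fold, with a median log2 change of -1.23. Without M0 replicate 1 both counts were the same and the median was -1.17. Geminin, the inhibitor of Cdt1, fell most. Gmnn (ENSMUSG00000006715) stood at 55.1, 42.2 and 42.4 CPM in M0, 29.0, 30.6 and 30.2 in M1, 39.0, 37.5 and 40.7 in M2, and 10.8, 11.66 and 11.999 in TAM. All TAM libraries were lowest and all M1 libraries lay between TAM and the other groups, with no overlap. The change against M0 was -2.02 (SE 0.117, adjusted p = 2.43e-07), a 4.05-fold fall. Cdt1, the factor that brings the helicase to the origin and the most abundant member of the group per kb of exon, fell by less, -0.93 (SE 0.133, adjusted p = 0.000181). Its levels were 198, 139 and 141 CPM in M0, 112, 113 and 124 in M1, 149, 139 and 131 in M2, and 84.7, 83.8 and 81.7 in TAM. The TAM values were the lowest and nearly equal, and the M1 values again lay between. Cdc6, the ATPase that works with Cdt1, changed by -1.66 (SE 0.092), Orc1, the large ATPase subunit of the origin recognition complex, by -1.53 (SE 0.121) and Orc6, its smallest subunit, by -0.68 (SE 0.119). All 3 passed the test.

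Orc2 was the only member called higher in any comparison of the fit with all 12 libraries. This subunit of the origin recognition complex was measured at 105, 123 and 124 CPM in M0, 110, 108 and 102 in M1, 111, 106.7 and 116 in M2, and 154, 148 and 162 in TAM. The TAM libraries were above all 9 others. Its log2 change was 0.41 against M0 (SE 0.093, adjusted p = 0.00398), 0.54 against M1 (adjusted p = 0.000743) and 0.48 against M2 (adjusted p = 0.00157). With only the 6 libraries of TAM and M0 in the fit the adjusted p against M0 was 0.0578, with a log2 change of 0.40. The exons of Orc2 share 29.8% of their bases with Nif3l1 on the opposite strand, and without a stated strand setting reads there cannot be assigned. Nif3l1 itself changed by -0.16 (SE 0.131, adjusted p = 0.319). The other subunits outside the 45 genes were Orc3, with a log2 change of 0.18 (adjusted p = 0.149), Orc4, which rose by 0.77 (adjusted p = 0.00174), and Orc5, which rose by 0.55 (adjusted p = 0.000175). Orc2, Orc4 and Orc5 were thus higher in TAM and Orc1 and Orc6 lower, and the ratio of Orc2 to Orc1 per kb was 18.3 to 21.8 in the TAM libraries against 4.08 to 5.80 in the 9 others.

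The balance of the licensing factor and its inhibitor was taken as the log2 ratio of Cdt1 to Gmnn per kb of exon within each library, which no scaling between libraries can change. It was 0.75, 0.61 and 0.63 in M0, 0.85, 0.78 and 0.93 in M1, 0.83, 0.79 and 0.59 in M2, and 1.87, 1.74 and 1.67 in TAM. TAM lay above all other libraries by a wide margin and M1 above M0 by a narrow one. The means were 0.66 ± 0.071 in M0 (SD, n = 3), 0.86 ± 0.077 in M1, 0.74 ± 0.127 in M2 and 1.76 ± 0.101 in TAM. The difference of TAM from M0 was 1.10, with a two-sided exact permutation p = 0.1, the smallest that 3 libraries against 3 can give. The other differences were 0.91 for TAM against M1 and 0.19 for M1 against M0, each with exact p = 0.1, and 0.07 for M2 against M0, with exact p = 0.5. Over these 4 comparisons the Benjamini-Hochberg values of the exact permutation tests were 0.133, 0.133, 0.133 and 0.5, so none passed a threshold of 0.05, and the design could not have reached it. Both genes fell in TAM, and the higher ratio came from the larger fall of Gmnn.

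**Figure D3:**
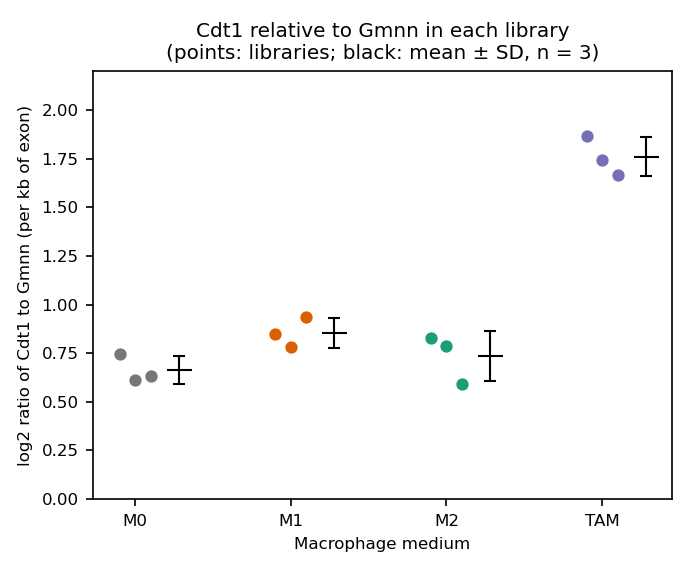
The vertical axis is the log2 ratio of Cdt1 to Gmnn per kb of exon, with 1 point per library in each of the 4 medium groups and the mean ± SD (n = 3) in black beside them. The TAM libraries lie between 1.67 and 1.87, above the 9 others at 0.59 to 0.93.

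All 6 subunits of the MCM2-7 ring, the motor of the replicative helicase, fell at least 2-fold in TAM, with or without M0 replicate 1. The largest fall was that of Mcm6 (ENSMUSG00000026355), which stood at 535, 494 and 497 CPM in M0, 381, 396 and 380 in M1, 463, 476 and 470 in M2, and 113, 115 and 114 in TAM. Replicates were tight, TAM lay far under every other library, and M1 lay under M0 and M2 without overlap. The change was -2.16 (SE 0.080, adjusted p = 2.01e-08), a 4.47-fold fall, and 4.37-fold without M0 replicate 1. The smallest fall was that of Mcm4, at 160, 254 and 268 CPM in M0, 172, 192 and 176 in M1, 256, 256 and 243 in M2, and 111, 116 and 105 in TAM. M0 replicate 1 was low here, at 0.614 of the mean of the other M0 libraries. The change of -1.04 (SE 0.163, adjusted p = 0.000337) was -1.24 (SE 0.047) without that library. Mcm3, the most abundant of the 6 per kb of exon, stood at 514, 445 and 457 CPM in M0, 295, 306 and 308 in M1, 447, 445 and 450 in M2, and 168, 185 and 171 in TAM. Its groups M1 and TAM were each separate from all others, and it fell by 1.43 (SE 0.089, adjusted p = 3.71e-07). Mcm5 changed by -2.07, Mcm7 by -1.27 and Mcm2 by -1.14.

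Each ring subunit occurs once in the complex, and the order of their transcript levels differed between groups, not only in TAM. Per kb, Mcm3 was the highest in M0 and M2, Mcm6 in M1 and Mcm2 in TAM. The lowest was Mcm4 in M0 and Mcm7 in M1 and M2. The ratio of Mcm2 to Mcm6 per kb was 0.867 to 1.16 in the 9 other libraries and 2.05 to 2.12 in TAM, and that of Mcm3 to Mcm6 was 0.960 to 1.20 against 1.86 to 2.00. Mcm6 was behind only Mcm3 and Mcm2 in M0, at 109 ± 4.94 CPM per kb (SD, n = 3). In TAM Mcm6, at 24.4 ± 0.262, and Mcm5, at 24.9 ± 1.33, were level as the least abundant of the ring. The pairs of subunits given as ratios, in the ring and elsewhere, were picked after their values were seen and carry no test. From the most to the least abundant, the 6 spanned 1.99-fold in M0, 1.78-fold in M1, 1.91-fold in M2 and 2.097-fold in TAM.

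Of the 9 genes that convert the loaded ring into an active helicase, 8 fell in TAM and 6 at least 2-fold. Without M0 replicate 1 all 9 fell, but only 4 at least 2-fold. Gins2, a subunit of the 4-part GINS complex that joins Cdc45 and MCM2-7, fell most. It stood at 37.7, 23.8 and 25.6 CPM in M0, 18.8, 18.8 and 17.2 in M1, 24.9, 22.0 and 24.5 in M2, and 5.59, 5.88 and 5.67 in TAM. TAM was lowest without overlap, and the change was -2.34 (SE 0.167, adjusted p = 1.15e-06). The exons of Gins2 share 67.3% of their bases with Gse1 on the opposite strand, which changed by 1.05 (SE 0.439, adjusted p = 0.0677), so its level is uncertain. Gins4, the most abundant gene of the group per kb of exon, was at 81.5, 45.3 and 49.1 CPM in M0, 40.3, 38.9 and 38.9 in M1, 43.2, 45.1 and 43.0 in M2, and 26.4, 26.1 and 26.3 in TAM. M0 replicate 1 was far above all others. The fall of 1.16 (SE 0.183, adjusted p = 0.000365) became one of 0.85 (SE 0.069) without that library. The ratio of Gins4 to Gins2 per kb was 13.5 to 14.4 in TAM against 5.27 to 6.86 elsewhere.

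Dbf4, the regulatory subunit that activates the kinase Cdc7, moved least of the group. Its levels were 108, 131 and 125 CPM in M0, 98.2, 101 and 96.7 in M1, 122, 120 and 129 in M2, and 114, 96.7 and 118 in TAM. TAM overlapped both M0 and M1. Cdc7 itself changed by -1.02 (SE 0.171, adjusted p = 0.000564), and the ratio of Cdc7 to Dbf4 per kb was 0.285 to 0.321 in TAM against 0.447 to 0.780 in the 9 others. Cdc45 changed by -1.20, Mcm10, a scaffold of helicase activation, by -1.14, Gins1 by -1.08, Ticrr (the treslin gene, needed to load Cdc45) by -0.81 and Gins3 by -0.70. All of these passed the test.

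All 8 genes of the polymerases and primase fell in TAM, 6 of them at least 2-fold, and 7 without M0 replicate 1. Pold1 (ENSMUSG00000038644), the catalytic subunit of polymerase delta, stood at 227, 142 and 146 CPM in M0, 122, 134 and 138 in M1, 150, 145 and 150 in M2, and 29.7, 33.03 and 29.8 in TAM. Its TAM values were far under all others, and M0 replicate 1 was far above the rest. It fell by 2.47 (SE 0.169, adjusted p = 8.88e-07), 5.56-fold, and 4.68-fold without M0 replicate 1. Pold2, the accessory subunit and the most abundant of the group per kb of exon, was at 148, 85.5 and 82.8 CPM in M0, 80.7, 80.3 and 81.3 in M1, 87.5, 76.4 and 85.5 in M2, and 30.8, 32.7 and 28.1 in TAM. Apart from M0 replicate 1 the groups M0, M1 and M2 lay close together, and TAM lay alone. Its change was -1.79 (SE 0.197, adjusted p = 2.72e-05) and -1.47 (SE 0.062) without that library. The remaining subunits of this enzyme were not among the 45 genes. Pold3 fell by less, with a change of -0.79 (adjusted p = 7.81e-06) and Pold4 rose by 0.96 (adjusted p = 0.0134), from 2.68 ± 0.638 to 5.20 ± 0.498 CPM. The ratio of Pold3 to Pold1 per kb was 0.329 to 0.651 in the other libraries and 1.30 to 1.53 in TAM.

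The smallest fall among the polymerase genes was that of Pole, the catalytic subunit of polymerase epsilon. It was measured at 65.0, 102 and 107.4 CPM in M0, 94.1, 89.8 and 93.8 in M1, 107.7, 102 and 101 in M2, and 60.1, 60.4 and 61.4 in TAM. TAM was lowest, but M0 replicate 1 lay only just above it. The change was -0.59 (SE 0.154, adjusted p = 0.00815) and, without M0 replicate 1, -0.80 (SE 0.051). With only the 6 libraries of TAM and M0 in the fit its adjusted p was 0.0720. Pole2, the accessory subunit, changed by -1.20, whereas Pole3 and Pole4, small subunits outside the 45 genes that also serve in chromatin, had log2 changes of -0.17 (adjusted p = 0.328) and -0.09 (adjusted p = 0.413). In polymerase alpha-primase, which starts each Okazaki fragment, the primase subunits Prim1 and Prim2 changed by -1.49 and -1.27, Pola2 by -1.38 and Pola1 by -0.73 (SE 0.253, adjusted p = 0.0321). Pola1 was the member in which M0 replicate 1 was lowest relative to its group, and its change without that library was -1.05 (SE 0.053).

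**Figure D4:**
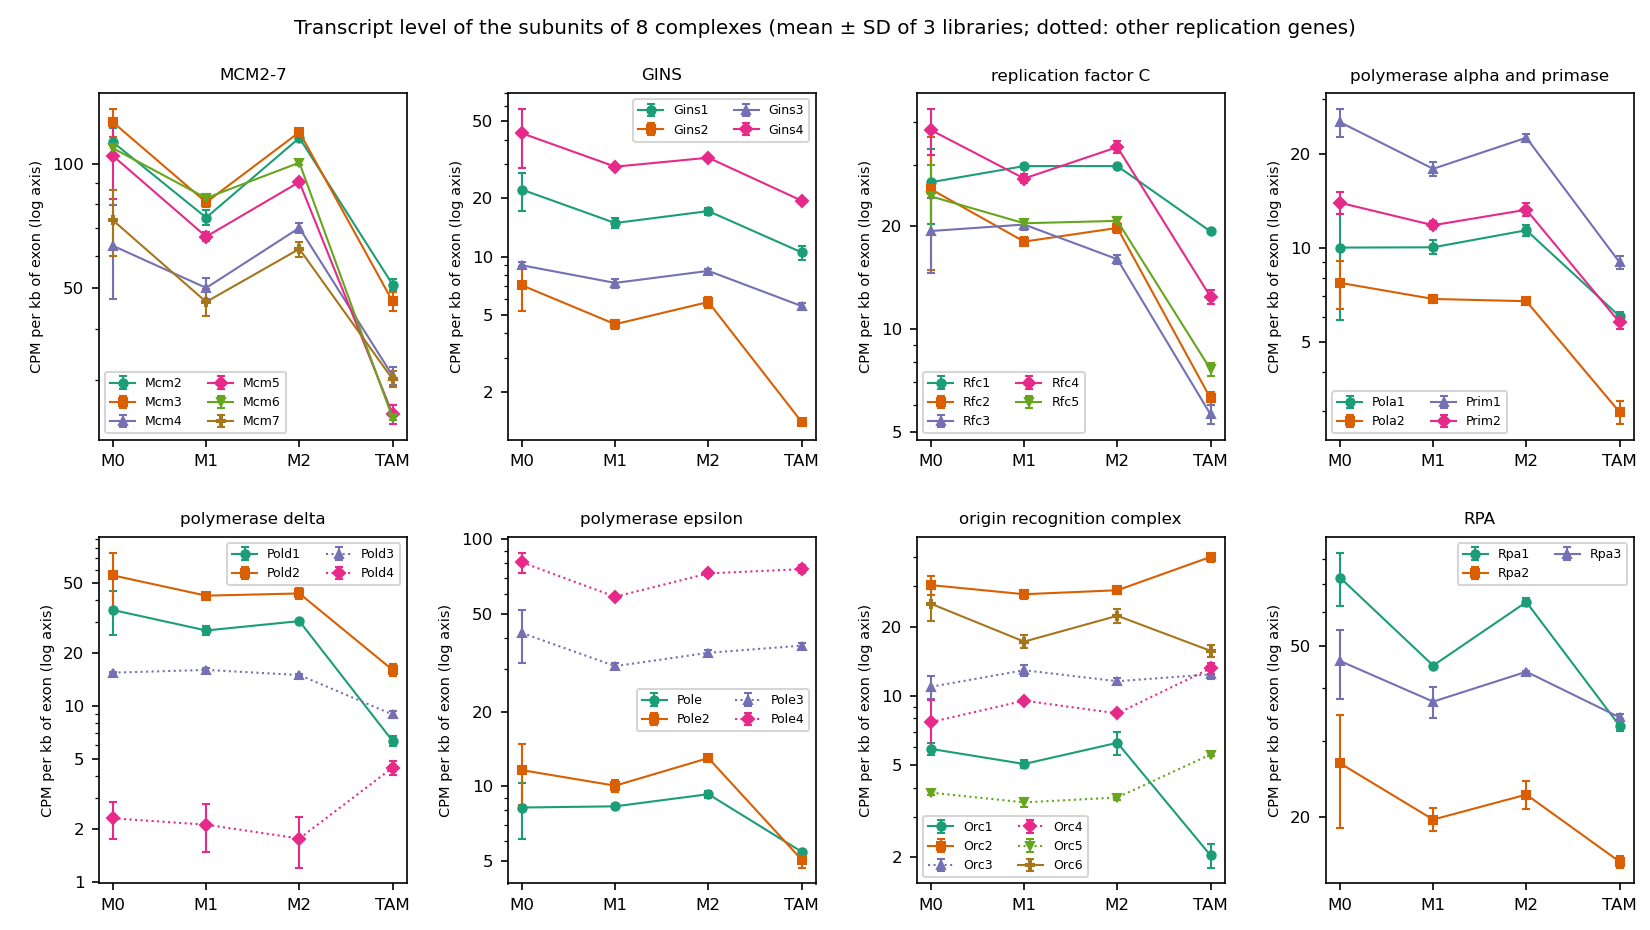
Each panel is a complex, with the medium groups on the horizontal axis and the CPM per kb of exon on a log vertical axis; symbols are the mean ± SD of 3 libraries, solid lines join the values of the 45 genes and dotted lines those of other replication genes, only to guide the eye. Subunits of 1 complex part in TAM: Orc2 at 40.1 CPM per kb rises as Orc1 falls to 2.03. Pold1 falls to 6.35 as Pold4 rises to 4.47. Rfc1 is the highest of Rfc1 to Rfc5 in TAM at 19.2 and also in M1 at 29.8, and Rfc4 is in M0 and M2.

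The sliding clamp and all 5 subunits of its loader fell in TAM. Pcna (ENSMUSG00000027342), the clamp itself and the most abundant of the 45 genes per kb of exon, stood at 512, 487 and 487 CPM in M0, 332, 365 and 350 in M1, 487, 464 and 482 in M2, and 218, 219 and 224 in TAM. Each of M1 and TAM was separate from all other groups, and M0 and M2 lay together. The change was -1.17 (SE 0.080, adjusted p = 7.77e-07), a 2.25-fold fall, and -1.15 without M0 replicate 1. Rfc2, a small subunit of replication factor C, was at 239, 118 and 127 CPM in M0, 116, 114 and 110 in M1, 129, 121 and 122 in M2, and 37.7, 39.9 and 41.3 in TAM. M0 replicate 1 held nearly all the spread of its group. The fall was 4.06-fold with that library (log2 change -2.02, SE 0.225, adjusted p = 2.99e-05) and 3.10-fold without it. Rfc3, Rfc4 and Rfc5 changed by -1.77, -1.61 and -1.67.

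Rfc1, the large subunit that makes the canonical loader, fell least. Its levels were 115, 182 and 187 CPM in M0, 182, 176 and 181 in M1, 179, 179 and 181 in M2, and 117, 117 and 114 in TAM. TAM was under all M1 and M2 libraries and under 2 of the 3 M0 libraries, M0 replicate 1 lying among the TAM values. The change of -0.48 (SE 0.151) had an adjusted p of 0.0218, which rose to between 0.0599 and 0.0718 when M0 replicate 2 or 3 or any TAM library was left out, and was 6.76e-20 without M0 replicate 1, with a log2 change of -0.67. The ratio of Rfc1 to Rfc2 per kb was 2.89 to 3.24 in TAM and 0.507 to 1.73 elsewhere, the lowest value being that of M0 replicate 1. Alternative loaders that share Rfc2 to Rfc5 lie outside the 45 genes. The cohesion loader genes Chtf18 and Dscc1 changed by -2.33 and -2.30, and Atad5, which unloads PCNA, by -0.20 (adjusted p = 0.722), which without M0 replicate 1 was -0.65 (SE 0.0575, adjusted p = 1.4e-14).

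The 3 subunits of RPA, which coats the exposed strand, fell in TAM by the least of any role, with a median of -0.76 and -0.50 without M0 replicate 1. Rpa1, the DNA-binding large subunit and the most abundant of the 3, stood at 470, 363 and 376 CPM in M0, 252, 253 and 249 in M1, 358, 345 and 358 in M2, and 184, 186 and 176 in TAM. M1 and TAM were each separate from the rest. Its change was -1.15 (SE 0.104, adjusted p = 5.96e-06), and -1.03 without M0 replicate 1. Rpa3, the smallest subunit, was at 63.4, 45.3 and 48.7 CPM in M0, 38.4, 45.3 and 42.8 in M1, 49.7, 49.7 and 49.2 in M2, and 39.5, 38.7 and 38.1 in TAM. TAM lay under M0 and M2 but among the M1 values. Its change of -0.44 (SE 0.122, adjusted p = 0.012) was -0.29 without M0 replicate 1 (SE 0.068, adjusted p = 0.000233), and it did not pass in a fit of the 6 libraries alone (adjusted p = 0.0798). Rpa2, the subunit phosphorylated under replication stress, changed by -0.76.

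The genes that mature Okazaki fragments held the largest fall of all. Lig1 (ENSMUSG00000056394; GRCm38 chr7:13277283-13311433), the ligase that seals the fragments, stood at 351, 259 and 252 CPM in M0, 181, 185 and 194 in M1, 251, 254 and 248 in M2, and 46.6, 48.6 and 48.1 in TAM. The 4 groups had tight replicates apart from M0 replicate 1, and TAM and M1 were each separate from the others. The change was -2.59 (SE 0.128, adjusted p = 8.78e-08), a 6.02-fold fall, and a 5.37-fold fall without M0 replicate 1. Dna2, a nuclease and helicase that trims long flaps, changed by -1.91 (SE 0.200). Fen1, the flap nuclease, was listed at only 3.68, 6.38 and 4.79 CPM in M0, 3.65, 3.08 and 3.72 in M1, 5.39, 4.91 and 5.19 in M2, and 1.93, 2.19 and 0.904 in TAM. These values were low for a core replication gene, TAM was lowest, and 84.2% of the exon bases of Fen1 are shared with the antisense gene Gm10143, so its level is uncertain. The change was -1.56 (SE 0.289, adjusted p = 0.00109).

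At the fork, all 4 genes that travel with the helicase fell in TAM. Clspn (claspin), the adaptor that couples the fork to the checkpoint kinase Chek1, changed most. It stood at 59.6, 94.9 and 94.5 CPM in M0, 96.4, 96.0 and 96.7 in M1, 93.3, 95.2 and 99.02 in M2, and 36.0, 32.8 and 36.8 in TAM. M0 replicates 2 and 3, M1 and M2 lay within a few CPM of each other, M0 replicate 1 was low, and TAM was lowest. The change was -1.24 (SE 0.155, adjusted p = 6.88e-05) and -1.43 (SE 0.056) without M0 replicate 1. Timeless, of the Timeless-Tipin pair that holds helicase and polymerase together, changed least. Its levels were 78.4, 85.7 and 90.7 CPM in M0, 78.3, 75.8 and 78.4 in M1, 93.7, 87.0 and 87.7 in M2, and 49.4, 48.7 and 49.6 in TAM. TAM lay alone, and the change was -0.79 (SE 0.082, adjusted p = 1.74e-05). Its partner Tipin, the most abundant of the 4 per kb of exon, was at 121, 94.8 and 100 CPM in M0, 63.4, 72.0 and 62.1 in M1, 92.9, 91.9 and 97.5 in M2, and 50.2, 47.6 and 49.3 in TAM. Here M1 was also well under M0 and M2. Tipin changed by -1.10 (SE 0.106, adjusted p = 9.46e-06) in TAM and Wdhd1, which links polymerase alpha to the helicase, by -1.03 (SE 0.121).

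The comparisons of TAM with M1 and M2 take no mean from M0 and gave like counts. Against M2, 43 members were lower and Orc2 was higher, where 22.6% of all genes were called lower and 20.7% higher, and the median member changed by -1.18. Against M1, 40 were lower and Orc2 was higher, beside 23.3% and 19.8% of all genes, with a median of -0.88. Without M0 replicate 1, which shares the scaling, filter and spread of the fit, 44 were lower against M2 (35.3% of all genes) and 43 against M1 (37.7%), with Orc2 higher in both (34.2% and 32.4%). The medians were then -1.19 and -0.93. The 4 members that did not pass against M1 with all libraries were Orc6, Dbf4, Rpa2 and Rpa3, with log2 changes of -0.13, 0.15, -0.33 and -0.12. These comparisons share the TAM libraries, so their counts are not independent of each other.

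In medium of interferon-treated macrophages a smaller set was lower, among it most of the licensing factors and of the helicase ring. In M1 against M0, 20 of the 45 members fell and none rose, beside 13.5% and 12.2% of all genes, and the median member changed by -0.38. With only the 6 libraries of M1 and M0 in the fit 5 members fell, beside 391 of 13789 genes. No member fell 2-fold; the changes ran from -0.68 (Rpa1) to 0.22 (Clspn, adjusted p = 0.316). Of the ring genes 5 of 6 fell, Mcm2, Mcm3, Mcm5, Mcm6 and Mcm7, by 0.40 to 0.65. Of the licensing genes 4 of 6 fell, Cdc6 by 0.64 (SE 0.090, adjusted p = 0.000418), Gmnn by 0.64, Orc6 by 0.55 and Cdt1 by 0.45. Of the 9 activation genes 5 fell, Mcm10 and the 4 GINS genes. In the remaining roles few did: Prim1 alone of the 8 polymerase genes, Pcna and Rfc4 of 6 clamp and loader genes, Rpa1 of 3, Lig1 of 3 and Tipin of 4. Whether the roles differ from each other was not tested. For 29 members all M1 libraries were under all M0 libraries and for 1, Clspn, all were above, beside 21.9% and 20.4% of all genes.

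Without M0 replicate 1, 30 members fell in M1 and Rfc3 rose, beside 22.9% and 24.3% of all genes, while the median was smaller, -0.28. All 6 ring genes then fell, by 0.32 to 0.63, and 4 of 8 polymerase genes did. Also lower were 5 of 6 licensing genes, 7 of 9 activation genes, 2 of 6 clamp and loader genes and Rpa1 of 3. All 3 Okazaki fragment genes and 2 of 4 fork genes were lower too. The median was -0.48 in the ring and -0.56 in the Okazaki fragment genes. Pole, at 0.02 (adjusted p = 0.953) with all libraries, became -0.14 (SE 0.050, adjusted p = 0.0154), and Cdc45, at -0.32 with all libraries, was -0.06 (adjusted p = 0.415). Rfc3, a small loader subunit, went from 0.06 (adjusted p = 0.771) to 0.32 (SE 0.061, adjusted p = 1.26e-05). Its levels were 89.5, 61.6 and 58.0 CPM in M0, 70.6, 75.8 and 72.0 in M1, 57.8, 59.3 and 55.9 in M2, and 21.8, 19.7 and 19.6 in TAM. Its M1 libraries were above all M2 libraries and above M0 replicates 2 and 3, and M0 replicate 1 was the highest of all. In the same fit without M0 replicate 1 its partner Rfc4 fell by 0.30 in M1 (SE 0.066, adjusted p = 0.000174), and both fell in TAM.

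**Figure D5:**
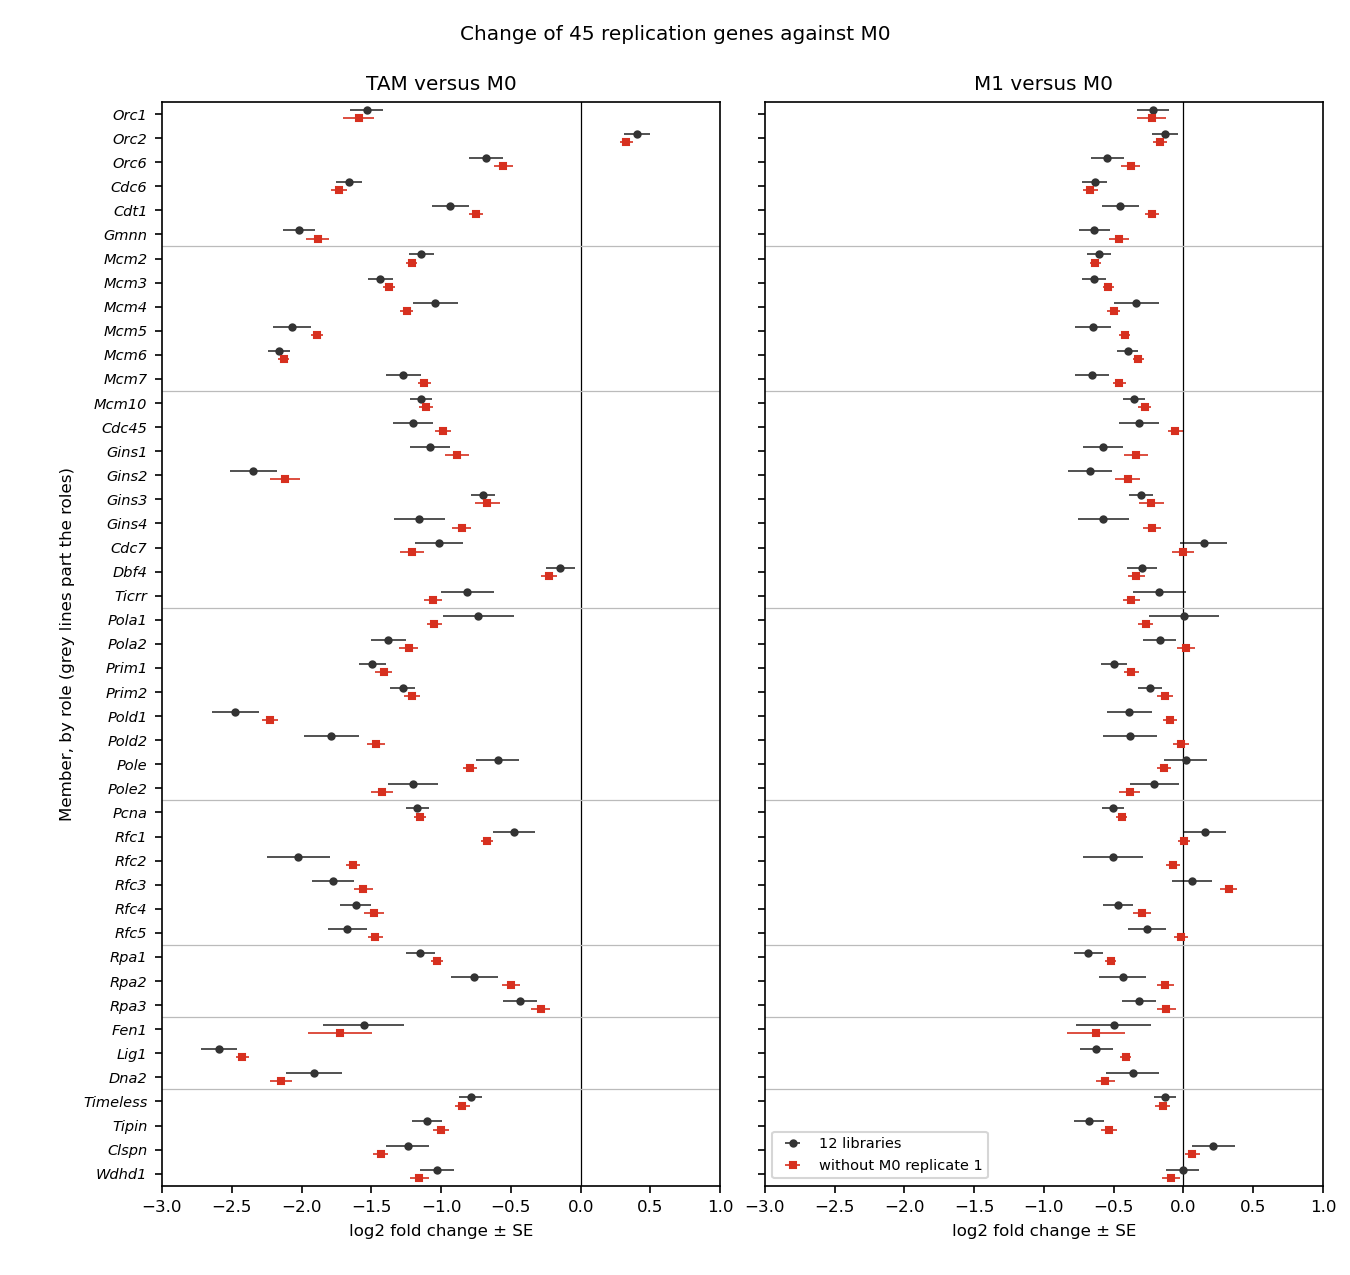
Log2 fold change ± SE of each of the 45 replication genes, grouped by role, in TAM against M0 (left) and M1 against M0 (right), with all 12 libraries (black circles) and without M0 replicate 1 (red squares). In TAM all members but Orc2 lie left of 0 and run from -2.59 to 0.41 with all libraries, whereas in M1 they run from -0.68 to 0.22 and shift towards 0 for many members without M0 replicate 1.

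M1 could also be set against M2, in which the macrophages received a cytokine at the same concentration and no M0 library enters the means. There 14 members were lower in M1 and none higher, beside 7.5% and 9.72% of all genes, with a median of -0.28. The 14 were Cdc6, Gmnn, Mcm2, Mcm3, Mcm5, Mcm6, Mcm7, Mcm10, Prim1, Pcna, Rpa1, Lig1, Dna2 and Tipin. M0 replicate 1 still shares the scaling, filter and spread of the fit. Without it 31 members were lower and Rfc3 was higher (log2 change 0.37), beside 23.5% and 24.8% of all genes, and the median was -0.25. Leaving out any library of M1, M2 or TAM brought the count to 6, beside 626 to 796 of 14912 to 15001 genes. With only the 6 libraries of M1 and M2 in the fit it was 31, beside 3397 of 13800 genes. Over these settings the median ran from -0.29 to -0.24. For 36 members all M1 libraries were under all M2 libraries, and for Rfc3 all were above, beside 30.1% and 25.1% of all genes.

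In medium of IL-4-treated macrophages no change of a replication gene passed the test. In M2 against M0 no member was called in either direction by edgeR, with all libraries or without M0 replicate 1, and none by DESeq2 or limma-voom. The share of all genes called was 0% with all 12 libraries and 0.134% lower and 0.207% higher without M0 replicate 1. At an unadjusted p under 0.05 there were 3 members and 980 of all genes with all libraries. The median member changed by -0.10, and by -0.02 without M0 replicate 1, where every member lay between -0.16 and 0.08. The 3 M2 libraries were all under the 3 M0 libraries for 9 members and above them for 0, beside 7.08% and 5.22% of all genes. These values do not show that M2 and M0 acted alike.

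Other genes of the same biology were described by lists that share no gene with the 45. Of 34 further replication genes 17 fell and 7 rose in TAM against M0, with a median of -0.26, beside 27.2% lower and 23.3% higher of all genes. Without M0 replicate 1, 19 fell and 7 rose, with a median of -0.44, beside 33.7% and 33% of all genes. The smallest adjusted p-values were those of Pclaf, a partner of PCNA (log2 change -2.68, SE 0.118, adjusted p = 4.33e-08), and Uhrf1, which guides maintenance methylation at the fork (-2.11, SE 0.094, adjusted p = 4.35e-08). The 7 that rose were Orc4, Orc5, Pold4, Asf1a, a histone chaperone (0.57), Recql4, a helicase of origin firing (0.63), Mtbp, the partner of treslin (0.32), and Mcm8, a helicase of repair (0.31, and 0.20 without M0 replicate 1). Of 8 genes of deoxynucleotide supply 7 fell. Thymidine kinase, Tk1, fell from 234 ± 82.3 CPM in M0 to 15.0 ± 0.137 in TAM (SD, n = 3; log2 change -3.96, SE 0.212, adjusted p = 1.61e-07) and the reductase subunit Rrm1 by 1.44. The exception was Rrm2b, the ribonucleotide reductase subunit induced by p53, which rose from 16.8 ± 9.41 to 105 ± 6.87 CPM (log2 change 2.64, SE 0.361, adjusted p = 0.00013). Without M0 replicate 1, 7 of the 8 again fell and Rrm2b rose by 2.25. The largest log2 change downward in the list was then -3.64.

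Among 15 genes of the E2F network and the S phase kinases, 7 fell and 3 rose in TAM, with a median of -0.49, and without M0 replicate 1, 10 fell and 4 rose, with a median of -0.90. All genes gave 27.2% lower and 23.3% higher, and 33.7% and 33% without that library. Cdk2, the kinase of S phase entry, fell by 2.14 (adjusted p = 6.15e-08) and E2f2 by 1.32 (adjusted p = 9.26e-07). The inhibitors Cdkn1a (p21) and Cdkn1b (p27) rose, Cdkn1a from 150 ± 49.1 to 484 ± 22.0 CPM (log2 change 1.69, SE 0.181, adjusted p = 2.24e-05) and Cdkn1b by 0.83 (adjusted p = 0.0145), as did Rb1 by 0.79 (adjusted p = 0.0193). Cdkn1b rose by 0.53 and Rb1 by 0.48 without M0 replicate 1. All 12 mitotic genes fell, with a median of -1.19, close to that of the replication genes. Aurkb fell by 2.69 and Plk1 by 2.23, both kinases of mitosis. Of 9 genes of the replication checkpoint 1 fell, Cdc25a (-0.32, adjusted p = 0.00776), and 3 rose, Rad17 (0.64, adjusted p = 6.95e-05), Rad1 (0.50, adjusted p = 0.00169) and the kinase Atr (1.03, adjusted p = 0.0132). Leaving out M0 replicate 1, 3 fell, Cdc25a, Chek1 and Wee1, and 4 rose, Rad9a with those 3, while Atr rose by 0.67. In M1 against M0 the counts lower and higher were 15 and 0 of the 34 replication genes, 6 and 0 of the 8 supply genes, 5 and 0 of the 15 network genes, 8 and 0 of the 12 mitotic genes and 1 and 0 of the 9 checkpoint genes, beside 13.5% and 12.2% of all genes. Without M0 replicate 1 they were 21 and 2, 7 and 1, 9 and 4, 11 and 0, and 3 and 2 in the same order, beside 22.9% and 24.3% of all genes.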

How the data were processed

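Whole-number read counts per gene for 12 mRNA libraries came from 1 table deposited by the authors. HISAT2 2.0 and the build mm10 are named, per the submitters' processing notes; no counter, annotation release or strand setting is given in the sources used here. Trizol RNA and an Illumina mRNA protocol were used, per the labels' protocols. A symbol was found for 55141 of the 55487 identifiers. GENCODE M21, in which 55227 of them were present, gave exon lengths and GRCm38 coordinates.

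Genes were filtered with filterByExpr, scaled by TMM and fitted in edgeR 4.0.16 (R 4.3.3) with the robust quasi-likelihood test, 1 mean per group, all 12 libraries in 1 fit. In each of 6 comparisons p-values went through Benjamini-Hochberg adjustment across 14591 genes and were called under 0.05; SE is the absolute log2 change over the square root of F. CPM are TMM-scaled, and per-kb values divide by merged exon length. The fit was tested on simulated data. Replicate numbers come from the titles; TAM replicate 2, whose title is misspelt, was placed by its treatment label. Alternatives were RLE and upper-quartile factors, no filter, DESeq2 1.42.0, limma-voom 3.58.1, a replicate block, only the 6 libraries compared, and leaving out each library. The floor of 3 counts was 0.144 to 0.189 CPM; it reflects counting error alone, since reads carried no molecular identifiers.

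The 45 members, their roles and the other gene lists were chosen with earlier results of these data known. Library values were given for the member with the largest, the one with the smallest change in TAM against M0 and the most abundant one in each role, and for members called higher or not lower; Rfc3 was added after its values were seen. Of each other list, the 2 genes with the smallest adjusted p and those called against its majority were named, and subunits of the same complexes were added. Promoter sequences are RefSeq windows on GRCm38.p6.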

Additional observations from a re-analysis of the deposited data

How the results depend on the processing

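Over all alternatives run, 38 to 44 members were lower in TAM against M0 and 41 to 44 in TAM against M2, and the median over the members stayed below 0 in all 6 comparisons. The genes called lower over these alternatives were 2510 to 5037 in TAM against M0 and 2788 to 5286 in TAM against M2. Between 13868 and 27593 genes were tested there. Some counts of members moved by over 1.5 times. With only the 6 libraries compared, 5 members were lower in M1 against M0, 0 higher in TAM against M0, 2 higher in TAM against M1, and 31 lower and 1 higher in M1 against M2. Of all genes the calls in the same order were 391 of 13789, 2109 of 13868, 5126 of 14077, and 3397 and 3555 of 13800. Without the filter, the median was -0.95 in TAM against M1 and -1.22 in TAM against M2. Then 7 members were lower in M1 against M2, beside 629 of 27593 genes. Leaving out 1 library at a time gave 41 to 44 members lower in TAM against M0, 37 to 43 in TAM against M1, 41 to 44 in TAM against M2, 16 to 30 in M1 against M0 and 6 to 31 in M1 against M2, with 0 to 1 higher in M1 against M0 and in M1 against M2. Out of 14912 to 15005 genes, those called lower were 3297 to 5037, 2917 to 5646, 2788 to 5286, 993 to 3426 and 626 to 3517, in that order. Genes called higher were 1294 to 3630 in M1 against M0 and 1060 to 3716 in M1 against M2. The medians of the members then ran from -0.96 to -0.83 in TAM against M1 and -1.21 to -1.17 in TAM against M2. In M1 against M2 they ran from -0.29 to -0.24. The change of Pole in M1 against M0 turned from 0.02 to -0.14 without M0 replicate 1, and was 0.15 without M0 replicate 3. The cause of these shifts was not tested.

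A replicate block, with the number in the title as a term, gave 42 members lower in TAM against M0. It gave 19 in M1 against M0 and 8 in M1 against M2. Of 14591 genes, 3735, 1554 and 898 were called lower in the same order. The numbers did not pair the libraries: same-numbered libraries deviated together with correlations of -0.129 to 0.163, over 0.1 in 1 of 18 pairs, and 1 of 12 libraries correlated best with its own number.

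Low counts limit the precision of Fen1 and Pold4, at a few CPM. For Fen1 the exon bases shared with Gm10143 also leave the level uncertain. The log2 ratio of Cdt1 to Gmnn in TAM against M0 was 1.04 to 1.14 over the leave-one-out settings and 1.09 with 1 count added.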
